A study of Schizosaccharomyces pombe with 4 samples.

Results

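The cytosolic ribosomal protein genes of fission yeast, Schizosaccharomyces pombe, were examined for how much newly made histone H3 they took up in 4 genotypes. They were chosen by annotation: every gene of the tiled part of chromosome II with a symbol starting rps (small subunit), rpl (large subunit) or rpp (stalk) and at least 3 array probes inside it, with rpp202 left out by the same rule. This gave 24 of the 871 protein-coding genes measured on those tiles, 11 of them rps and 13 rpl, and with rpp202 left out no stalk gene remained. Of the 24 annotated products, 23 name a 40S or 60S ribosomal protein. The exception is rpl701, annotated as an RNase MRP subunit that resembles ribosomal protein L7. It was kept because the rule goes by symbol. Leaving it out moved none of the 34 medians recomputed without it by more than the spread between neighbouring probes (0.0932 on the log2 scale). The medians of the rps genes do not contain it and a single gene shifts a median little, so this says little about its place among the 24.

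The 4 genotypes were wild type (WT), clr3D, IRD2 and the combined IRD2 clr3D, with 1 array each, so no difference between genotypes has a replicate check and no p-value is given. Clr3 is a histone deacetylase of heterochromatin, and the labels do not define IRD2. All 4 strains carried the plasmid pINV1-H3.2-FLAG and, per the labels' protocols, grew in EMM-Leu with 8% glucose, were held in 15 mM hydroxyurea for 4 h, and were then shifted to 4% sucrose with hydroxyurea for 2 h, which switches on the FLAG-tagged H3. After fixation in 1% formaldehyde for 20 min and shearing to fragments of 400 to 600 bp, DNA bound to FLAG-H3 was precipitated and labelled with Cy5. DNA of the whole-cell extract was labelled with Cy3, both after random-primed PCR. A value below is log2 of Cy5 over Cy3 minus the median of the array, so that 0 is the middle of that array and a level is relative to the other DNA of the same cells. These are populations of cells, and new H3 in few cells cannot be told apart from little new H3 in all of them.

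By the file headers all 4 arrays shared 1 slide and 1 scan, and at least 43811 of 43993 non-control probes per array were well above background in both channels. Neighbouring tiles, 50 bp apart, differed by a robust SD of 0.0869 to 0.102 per tile. Extract DNA was lost at the same places in both IRD2 arrays, over 4 probes at 2131111 to 2131320 and over 4 at 2138611 to 2138820 of chromosome II, with median differences from WT between -8.71 and -8.06 on the log2 scale, and clr3D showed no such loss. The clr3 gene was not analysed here, so that its deletion is unchecked.

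Ribosomal protein genes encode the structural proteins of the ribosome and are among the most strongly transcribed genes of growing yeast. In fission yeast many are present in several near-identical copies, and their promoters typically lack a TATA box and carry a HomolD box close to the start, often with a HomolE box next to it. Nucleosomes over transcribed genes exchange their histones, and H3 supplied while DNA replication is blocked can enter chromatin by such exchange as well as at residual replication.

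Both promoter boxes were common upstream of the 24 genes. In the window from 250 bases before to 50 after the annotated start, the letters CAGTCACA (HomolD, or TGTGACTG on the other strand) occurred in 15 of 24 promoters (62.5%), against 2.68% of 5112 promoters of protein-coding genes in the whole genome. The letters ACCCTACCC (the first part of the HomolE box, or GGGTAGGGT) occurred in 7 of 24 (29.2%), against 1.31% of all promoters. TATAAA (or TTTATA) was found in 2 of 24 (8.33%), rpl26 and rpl4302, against 48.1% of all promoters. Counted back from the start as -1, the HomolD letters before it began at positions from -85 to -16, with a median of -56, and the HomolE letters at positions from -95 to -60. rpl701 and rps1402, neighbours that start back to back in opposite directions, share the same 2 HomolD matches. rpl1701, rpl8 and rps21 held both boxes, and rpl1102, rpl2502, rpl802, rps3002 and rps902 held neither in these exact letters.

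The stretches below are the 150 bases before the annotated start of 6 genes. They are the 3 genes in which FLAG-H3 DNA stood highest over the gene relative to the DNA before it in WT, and the 3 in which it stood lowest, among the 18 with no other coding gene in the stretch. The sequences were read from RefSeq build ASM294v3 and run toward the gene's start. Capitals mark HomolD or HomolE letters on either strand, and the coordinates are those of that build on chromosome II, whereas every other coordinate here is the array files' own. The stretch of rps21 lies at chrII:2083718-2083867 on the plus strand, rpl26 at chrII:1558637-1558786 on the minus strand, rpl1001 at chrII:2081331-2081480 on the plus strand, rpl2502 at chrII:2690671-2690820 on the plus strand, rpl2701 at chrII:2780665-2780814 on the minus strand and rps2302 at chrII:2896937-2897086 on the plus strand.
rps21: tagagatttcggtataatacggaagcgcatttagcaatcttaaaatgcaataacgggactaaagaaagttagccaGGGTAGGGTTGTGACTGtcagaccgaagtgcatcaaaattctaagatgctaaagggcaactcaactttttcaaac
rpl26: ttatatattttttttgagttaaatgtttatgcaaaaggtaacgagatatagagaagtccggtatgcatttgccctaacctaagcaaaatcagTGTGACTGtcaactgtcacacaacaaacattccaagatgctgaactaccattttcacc
rpl1001: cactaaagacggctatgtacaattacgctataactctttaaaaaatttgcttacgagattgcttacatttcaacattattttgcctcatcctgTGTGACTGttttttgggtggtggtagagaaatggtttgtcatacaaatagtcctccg
rpl2502: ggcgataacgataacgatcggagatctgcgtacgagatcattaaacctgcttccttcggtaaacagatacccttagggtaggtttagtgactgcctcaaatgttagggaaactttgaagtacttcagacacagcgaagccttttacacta
rpl2701: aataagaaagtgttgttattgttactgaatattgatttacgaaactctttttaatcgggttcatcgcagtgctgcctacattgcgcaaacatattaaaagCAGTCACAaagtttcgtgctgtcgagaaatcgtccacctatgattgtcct
rps2302: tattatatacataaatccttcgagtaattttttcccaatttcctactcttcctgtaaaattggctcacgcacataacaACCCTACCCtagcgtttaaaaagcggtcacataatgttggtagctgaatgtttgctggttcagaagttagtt

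In WT cells new H3 stood above the array median over 23 of the 24 genes, while 55.0% of all 871 genes did so. The median level of the 24 was 0.265, against 0.0313 over all genes. In clr3D the median was 0.170 with 21 of 24 above 0 (51.4% of all genes). In IRD2 it was -0.00040 with 12 of 24 above 0 (53.4% of all genes), and in IRD2 clr3D it was 0.135 with 19 of 24 above 0 (53.0% of all genes). The medians over all genes were 0.0080, 0.016 and 0.015 in these 3 arrays. The order WT, clr3D, IRD2 clr3D, IRD2 held for both subunits. For the 11 rps genes the medians were 0.27 in WT, 0.21 in clr3D, 0.14 in IRD2 clr3D and -0.0027 in IRD2, and for the 13 rpl genes they were 0.26, 0.16, 0.13 and 0.0019. WT had the highest of the 4 levels in 20 of 24 genes (34.1% of all genes), and IRD2 the lowest in 20 of 24 (20.9% of all genes).

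**Figure D1:**
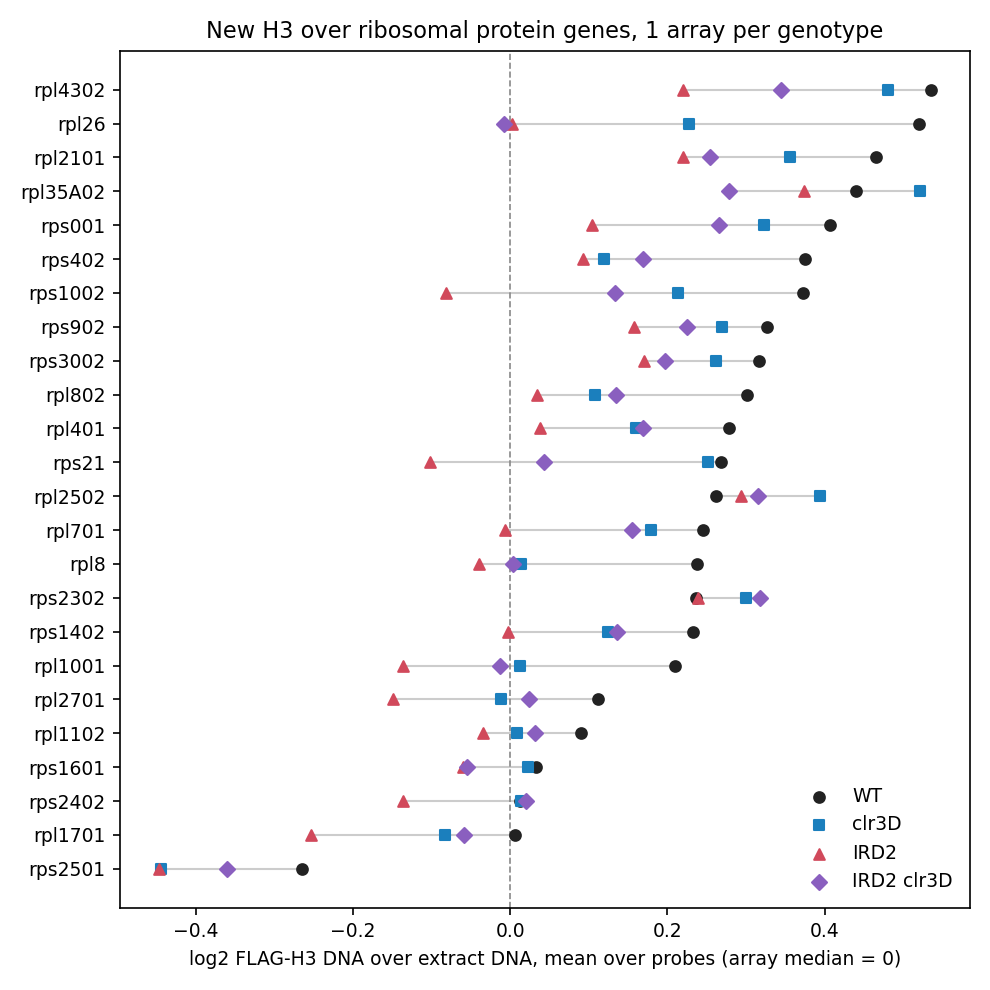
Level of new H3 over each of the 24 ribosomal protein genes (y axis, ordered by the WT level) as log2 of Cy5 over Cy3 minus the array median (x axis), 1 symbol per array and 1 array per genotype. WT lies to the right of the other 3 arrays in 20 genes and IRD2 to the left in 20. rps2501 is the only gene below 0 in WT.

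The small-subunit genes ranged in WT from -0.26 to 0.41. The highest was rps001, which encodes uS2, with 0.41 in WT, 0.32 in clr3D, 0.27 in IRD2 clr3D and 0.10 in IRD2. The lowest was rps2501, which encodes eS25 and lies at 1275150 to 1275619 of chromosome II on the plus strand, with -0.26 in WT, -0.44 in clr3D, -0.36 in IRD2 clr3D and -0.45 in IRD2. It was the lowest of the 24 in every array, and its 8 probes had an SD of 0.13 in WT. The DNA around it was low as well, at -0.46 in the 500 bp before it and -0.29 in the 500 bp after it in WT. rps2402, which encodes eS24 (2182703 to 2183281, plus strand), stood at 0.013 in WT, 0.013 in clr3D, 0.021 in IRD2 clr3D and -0.14 in IRD2, so that only IRD2 set it apart. rps1601, which encodes uS9, was close to the array median throughout, at 0.033, 0.023, -0.060 and -0.056 in WT, clr3D, IRD2 and IRD2 clr3D.

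The large-subunit genes ranged in WT from 0.0055 to 0.54, and none of the 13 lay below 0. rpl4302, which encodes eL43 (1514230 to 1514651, minus strand), had the highest WT level of all 24. It stood at 0.54 in WT (SD 0.17 between its 7 probes), 0.48 in clr3D, 0.34 in IRD2 clr3D and 0.22 in IRD2. rpl26, which encodes uL24 (1559079 to 1559536, minus strand), was next in WT. Its levels were 0.52 in WT (SD 0.13, 8 probes), 0.23 in clr3D, -0.0076 in IRD2 clr3D and 0.0019 in IRD2, so that it stood close to the array median in both arrays with IRD2. rpl2101, which encodes eL21 (2504983 to 2505580, minus strand), stood at 0.47, 0.36, 0.22 and 0.25 in WT, clr3D, IRD2 and IRD2 clr3D, and stayed above the median in all 4 arrays. rpl1701, which encodes the L17 protein of the 60S subunit (1735130 to 1735809, minus strand), was the lowest large-subunit gene in WT. It stood at 0.0055 in WT, -0.083 in clr3D, -0.059 in IRD2 clr3D and -0.25 in IRD2.

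Some features of the genes differ from the rest of the tiles and bear on how these levels are read. The 24 genes are short, from 422 to 1390 bp with a median of 648.5 bp, against 1732 bp for all genes, and each was covered by 7 to 27 probes. Their bodies are richer in G and C, with a median of 44.5% against 37.0%, while their upstream DNA has 32.4% against 31.3%. Over 40975 tiles the ratio went with the GC content of the probe, with r = 0.195 in WT, 0.124 in clr3D, 0.221 in IRD2 clr3D and 0.0773 in IRD2. After a straight line on probe GC was taken off in each array, the median of the 24 was 0.189 in WT, 0.108 in clr3D, 0.0186 in IRD2 clr3D and -0.0139 in IRD2, beside 0.0017, -0.0030, 0.0249 and 0.0358 over all genes. The WT and clr3D levels thus remained above those of all genes, and the level of IRD2 clr3D did not. Of the 323 probes of the 24 genes, 148, in 20 genes, match another place of the genome over at least 50 of their 60 bases and can bind DNA of a paralog. With probes that match 1 place only, the WT median was 0.25 over 22 genes. An intron is annotated in 13 of the 24 genes (54.2%, against 51.1% of all genes), and the WT medians with and without one were 0.26 and 0.28. Gene length and WT level were unrelated over the 24 genes (Pearson's r = 0.040, Spearman's rho = -0.077, genes of 1 array and so not independent).

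In WT the gene bodies also stood above the DNA next to them. Fragments of 400 to 600 bp are about as long as the flanks, so that body, flanks and the parts within a gene share fragments. The level of the body minus that of the 500 bp before the start had a median of 0.249, with 21 of 24 above 0 (61.7% of all genes, median 0.081). The WT step was smaller after loess normalisation and after the adjustment for GC, with the values in the closing section. Those values are of the 24 genes only, so they do not show whether the contrast with all genes remained. In clr3D the median was 0.20 with 19 of 24 above 0 (64.5% of all genes, median 0.093). It was 0.073 in IRD2 with 20 of 24 (56.5%, median 0.033) and 0.097 in IRD2 clr3D with 20 of 24 (68.7%). In 17 of 24 genes the body was above the upstream DNA in all 4 arrays, as it was in 46.2% of all genes. In IRD2 clr3D the median was close to that of all genes, 0.102, and its direction was not stable: it was -0.047 after loess normalisation and -0.021 after the adjustment for GC. Against the 500 bp past the gene's end, the WT median was 0.153 with 20 of 24 above 0 (57.3% of all genes, median 0.053). It was 0.071 in clr3D (17 of 24, 55.1% of all genes, median 0.039) and -0.10 in IRD2 (8 of 24, 50.5%, median 0.0024). In IRD2 clr3D it was 0.079 (16 of 24, 59.6%, median 0.049), where loess and the adjustment for GC again turned the sign. Within the genes, the part past the middle, toward the 3' end, was above the part before it in 13 of 24 genes in WT (47.0% of all genes), 15 in clr3D (53.0%), 22 in IRD2 (53.7%) and 15 in IRD2 clr3D (50.8%). The median of that difference was 0.055 in WT, 0.051 in clr3D, 0.031 in IRD2 clr3D and 0.093 in IRD2, and its quartiles in IRD2 were 0.054 and 0.15.

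**Figure D2:**
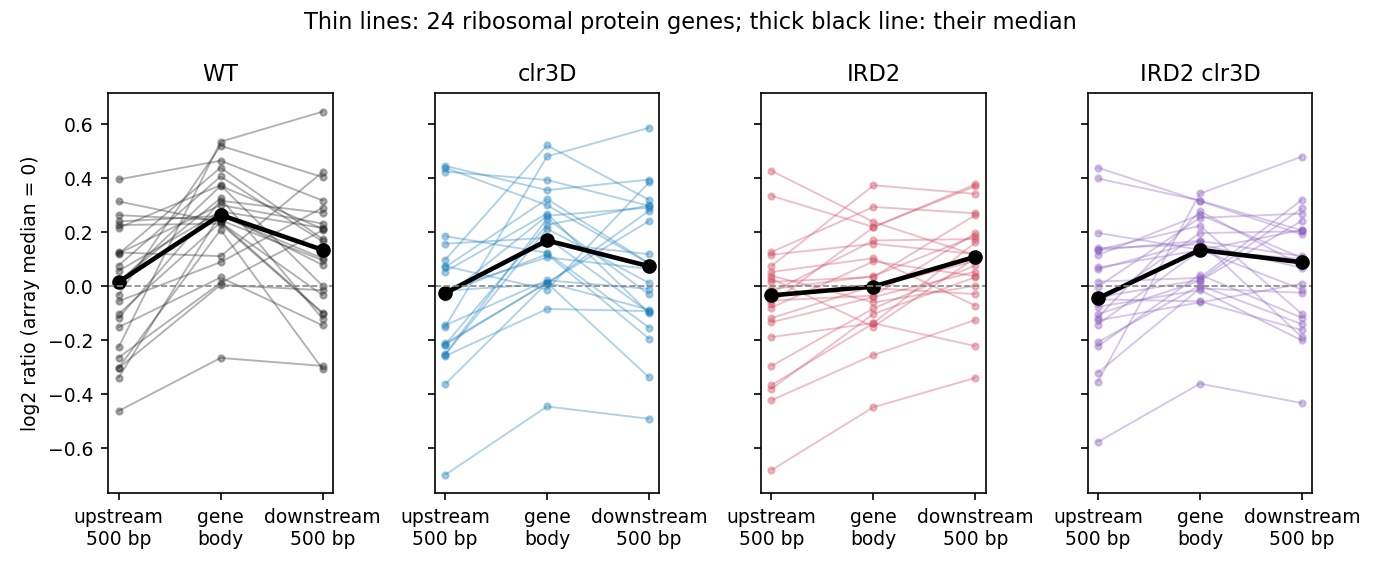
Level of new H3 (y axis, log2 of Cy5 over Cy3 minus the array median) in the 500 bp before, over and in the 500 bp after the 24 ribosomal protein genes, 1 panel per array. Thin lines are genes and the thick line is their median. The median steps up into the gene body in WT, and in IRD2 it is higher after the gene (0.11) than over it (-0.00040). In IRD2 clr3D the higher body turned below the flanks after loess or an adjustment for GC. The WT step at the start was smaller under both.

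The largest steps at the gene start in WT belonged to rpl4302, rps21 and rpl26. The body of rpl4302 exceeded its upstream DNA by 0.76 in WT, 0.63 in clr3D, 0.70 in IRD2 clr3D and 0.28 in IRD2. The body of rps21, which encodes S21 (2085668 to 2086123, plus strand) and has the HomolE and HomolD letters side by side in the stretch printed above, exceeded it by 0.61 in WT, 0.50 in clr3D, 0.27 in IRD2 clr3D and 0.28 in IRD2. For rpl26 the steps were 0.55, 0.44, 0.12 and 0.31 in WT, clr3D, IRD2 and IRD2 clr3D. For rpl26 and rpl4302 the DNA past the gene's end was high too, at 0.40 and 0.65 in WT.

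In WT no step up was seen for 3 genes, with values of -0.078 for rps2302, which encodes uS12 (2898887 to 2899433, plus strand), -0.019 for rpl701 (1792706 to 1794095, minus strand) and -0.014 for rpl2701, which encodes L27 (2781853 to 2782464, minus strand). The upstream DNA of rps2302 was itself at 0.31 in WT. rps2302 remained below its upstream DNA in the other arrays, by -0.14 in clr3D, -0.19 in IRD2 and -0.082 in IRD2 clr3D. The 500 bp before rpl701 lie mostly in rps1402, another member, and rps1402 in turn had a step of 0.0048 in WT, so that the pair formed 1 raised block, with levels of 0.25 and 0.23. In all, 17 of the 24 genes had at least 1 upstream probe inside another coding gene. With the flank probes inside coding genes left out, the WT median was 0.241 over the 17 genes that kept enough probes.

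The average profile around the start showed the same step in 100 bp bins. Fragments of 400 to 600 bp span several bins, so that neighbouring bins are not resolved from each other. In WT the median of the 24 genes was -0.060 in the 100 bp bin centred 250 bp before the start and -0.010 at 150 bp before it. It was 0.14 at 50 bp before the start, 0.20 at 50 bp after it and 0.30 at 250 bp after it. Other protein-coding genes went from -0.067 to 0.043 between the bins 250 bp before and 250 bp after. In IRD2 the ribosomal protein genes stayed between -0.075 and 0.023 in every bin from 450 bp before to 450 bp after the start and reached 0.093 at 550 bp, which for the shorter genes is past their end. In clr3D and IRD2 clr3D the values at 250 bp after the start were 0.18 and 0.14.

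**Figure D3:**
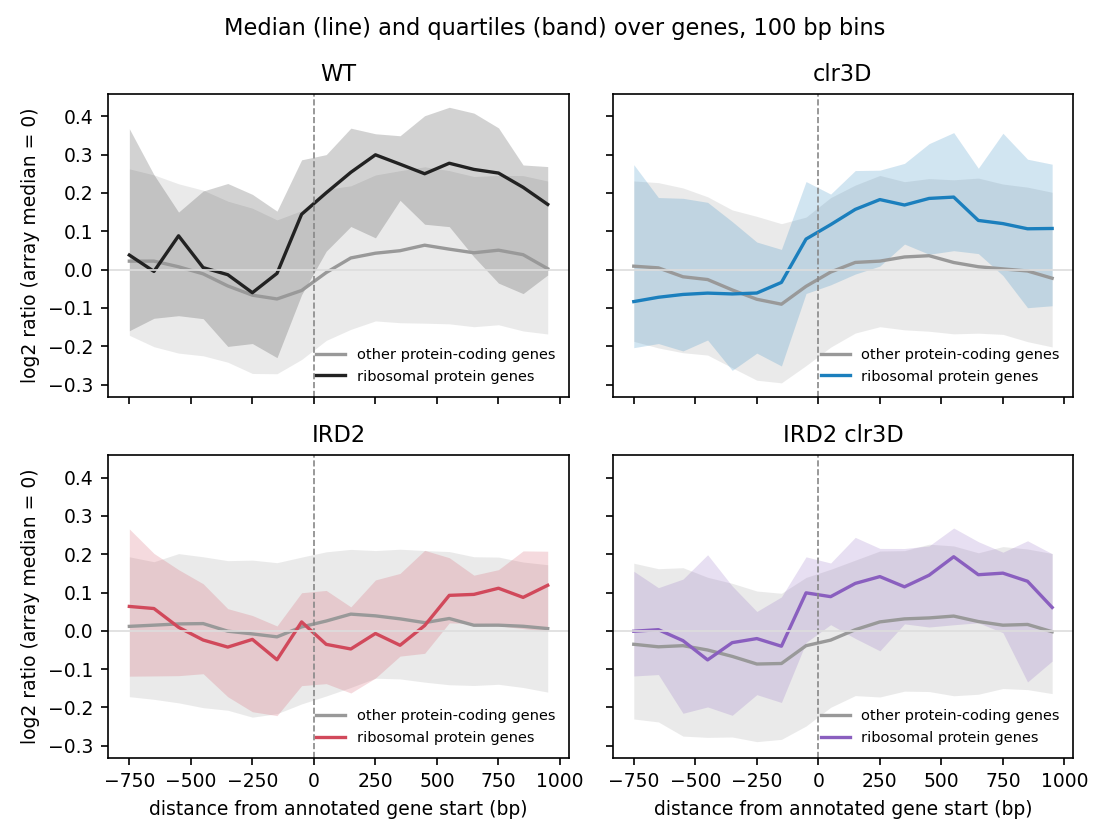
Level of new H3 (y axis, log2 of Cy5 over Cy3 minus the array median) by distance from the annotated gene start in bp (x axis, 100 bp bins), 1 panel per array. Coloured lines are medians over the ribosomal protein genes, grey lines over the other protein-coding genes, and bands span the quartiles. The WT line climbs from -0.060 at 250 bp before to 0.30 at 250 bp after the start, and the IRD2 line stays near 0 there.

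The first comparison set clr3D against WT and bears on uptake of new H3 without this deacetylase. The level over the gene body was lower in clr3D in 20 of 24 genes (52.5% of all genes), with a median difference of -0.086 against -0.010 over all genes. Per 10 points of probe GC the ratio changed by 0.101 in WT and by 0.063 in clr3D. After the adjustment for GC the median level was 0.189 in WT and 0.108 in clr3D. The part of base composition in this difference was not tested. Taking 0.2 on the log2 scale (1.15-fold) as the size worth counting, 3 of 24 were lower by at least that much (8.61% of all genes) and 0 were higher (4.48%). These were rpl26 at -0.29, rps402, which encodes eS4 (1652625 to 1653633, minus strand), at -0.26 and rpl8, which encodes eL8 (2047275 to 2048242, plus strand), at -0.22. rps402 stood at 0.37 in WT, 0.12 in clr3D, 0.17 in IRD2 clr3D and 0.092 in IRD2, and rpl8 at 0.24, 0.014, 0.0039 and -0.039, so both were highest in WT. On the other side were rpl2502 at 0.13, rpl35A02 at 0.082 and rps2302 at 0.064. rpl2502, which encodes uL23 (2692621 to 2693522, plus strand), stood at 0.26 in WT, 0.39 in clr3D, 0.32 in IRD2 clr3D and 0.29 in IRD2. rpl35A02, which encodes eL33 (2407119 to 2407778, minus strand), stood at 0.44, 0.52, 0.28 and 0.37, and it was the highest of the 24 in clr3D and IRD2.

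The lower ratio in clr3D was not seen in the precipitated DNA alone. With Cy5 alone the median difference was 0.017 and 9 of 24 genes were below 0 (42.4% of all genes). With Cy3 alone, the extract DNA, all 24 genes were higher in clr3D (61.0% of all genes), by a median of 0.093 against 0.022. The step from upstream DNA into the body was smaller in clr3D than in WT in 20 of 24 genes (49.9% of all genes), with a median of -0.070. With Cy5 alone that median was -0.015, close to the -0.012 of all genes, and after the adjustment for GC it was -0.020.

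IRD2 differed most from WT. The body level was lower in 22 of 24 genes (50.2% of all genes), with a median difference of -0.249 against -0.00027 over all genes. Of the 24, 15 were lower by 0.2 or more (14.6% of all genes) and 0 were higher by that much (4.82%). The median difference was -0.26 for the rpl genes, with 12 of 13 below 0, and -0.18 for the rps genes, with 10 of 11 below 0. The lowest were rpl26 at -0.52, rps1002 at -0.45 and rps21 at -0.37. rps1002, which encodes eS10 (1448903 to 1449444, plus strand), stood at 0.37 in WT (SD 0.10 between its 10 probes), 0.21 in clr3D, 0.13 in IRD2 clr3D and -0.082 in IRD2 (SD 0.16). rps21 stood at 0.27 in WT (SD 0.060, 8 probes), 0.25 in clr3D, 0.044 in IRD2 clr3D and -0.10 in IRD2 (SD 0.073). In all 3 genes the 2 arrays differed by more than the spread between the probes of either, which measures spots of 1 hybridisation and not cultures. At the other end, rpl2502 differed by 0.033, rps2302 by 0.0016 and rpl35A02 by -0.065. rps2302 stood at 0.24 in WT, 0.30 in clr3D, 0.32 in IRD2 clr3D and 0.24 in IRD2, so that its 2 arrays with the clr3D change were the higher ones.

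The precipitated DNA and the extract both moved with this difference. With Cy5 alone the median was -0.132, 19 of 24 genes were lower in IRD2 (50.3% of all genes), and 8 were lower by 0.2 or more (8.38% of all genes). With Cy3 alone, 23 of 24 genes were higher in IRD2 (55.2% of all genes), by a median of 0.104. For rpl26 the Cy5 difference was -0.40 and the Cy3 difference 0.12, and for rps21 they were -0.11 and 0.27. The 2 genes thus reached a low ratio with different shares of the channels. The size of the difference also depended on an adjustment for GC and on the probes and genes kept. The median was -0.155 after adjustment for GC, with 22 of 24 below 0 (38.7% of all genes) and 6 lower by 0.2 or more (8.73% of all genes). It was likewise -0.155 with probes that match 1 place, where 20 of 22 genes were below 0 (50.1% of all genes) and 9 of them by 0.2 or more (14%). Over all genes the median level after the adjustment for GC was 0.0358 in IRD2 and 0.0017 in WT. The part of base composition and of paralogous DNA in the remaining difference was not tested.

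The difference was larger over the genes than beside them. In the 500 bp upstream, the IRD2 level was lower than in WT in 17 of 24 genes (39.5% of all genes), with a median difference of -0.062. The step into the body was smaller in IRD2 than in WT in 19 of 24 genes (62.9% of all genes), with a median of -0.168 against -0.052 over all genes. The contrast with all genes was not seen in the precipitated DNA alone, where the medians were -0.115 and -0.116. With Cy3 alone they were 0.033 and -0.065, and after the adjustment for GC the ratio's median was -0.076 against -0.021. In the promoter groups, the 15 genes with HomolD letters were all lower in IRD2, with a median of -0.25, and of the 9 without them 7 were lower, with a median of -0.17. The ranges overlapped, from -0.52 to -0.065 and from -0.45 to 0.033, and no test was made of the difference between the groups.

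IRD2 clr3D lay between WT and IRD2 in most genes. Against WT, 21 of 24 were lower (52.1% of all genes), with a median difference of -0.115, and 7 were lower by 0.2 or more (17.8% of all genes) with 0 higher (7.35%). Among these, rpl26 was lowest at -0.53. The step into the body was smaller than in WT in 19 of 24 genes (48.0% of all genes), with a median of -0.126. With Cy5 alone the median was -0.183 beside -0.178 over all genes, and with Cy3 alone -0.099 beside -0.211, so here too the precipitated DNA alone moved about as it did in all genes.

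Set against IRD2, the combined genotype was higher over 22 of the 24 genes, and thus lower in 2 (52.5% of all genes), with a median difference of 0.093 against -0.0086 over all genes. By the size of 0.2, 1 gene was higher (4.25% of all genes) and 0 were lower (4.36%). That gene was rps1002 at 0.21. Next came rpl1701 at 0.19 and rpl2701 at 0.17. rpl2701 stood at 0.11 in WT, -0.012 in clr3D, 0.024 in IRD2 clr3D and -0.15 in IRD2. The lowest were rpl35A02 at -0.096, rpl26 at -0.0095 and rps1601 at 0.0040. With Cy5 alone 20 of 24 genes were higher in the combined genotype (55.5% of all genes), by a median of 0.043, and with Cy3 alone 16 of 24 were lower (45.4%), by a median of -0.054. After adjustment for GC the median was 0.035, with 18 of 24 above 0 (42.8% of all genes). The step into the body was smaller than in IRD2 in 9 of 24 genes (34.4% of all genes), with a median difference of 0.059 beside 0.061 over all genes, which was -0.097 beside -0.074 with Cy5 alone and -0.017 beside 0.022 after the adjustment for GC.

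Set against clr3D, IRD2 clr3D differed little in the ratio. It was lower in 14 of 24 genes (46.2% of all genes) with a median of -0.026, 3 were lower by 0.2 or more (6.77%) and 0 were higher (1.15%). The 3 were rpl35A02 at -0.24, rpl26 at -0.24 and rps21 at -0.21. The size depended on the processing. With normexp background correction the median was -0.077, against -0.0078 over all genes, and 20 of 24 genes were below 0 (52.1% of all genes). The precipitated DNA alone was lower in 20 of 24 genes (51.4% of all genes), with a median of -0.11, and the step into the body was smaller in 20 of 24 (49.7%), with a median of -0.067. That median was -0.203 with Cy5 alone, beside -0.164 over all genes.

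**Figure D4:**
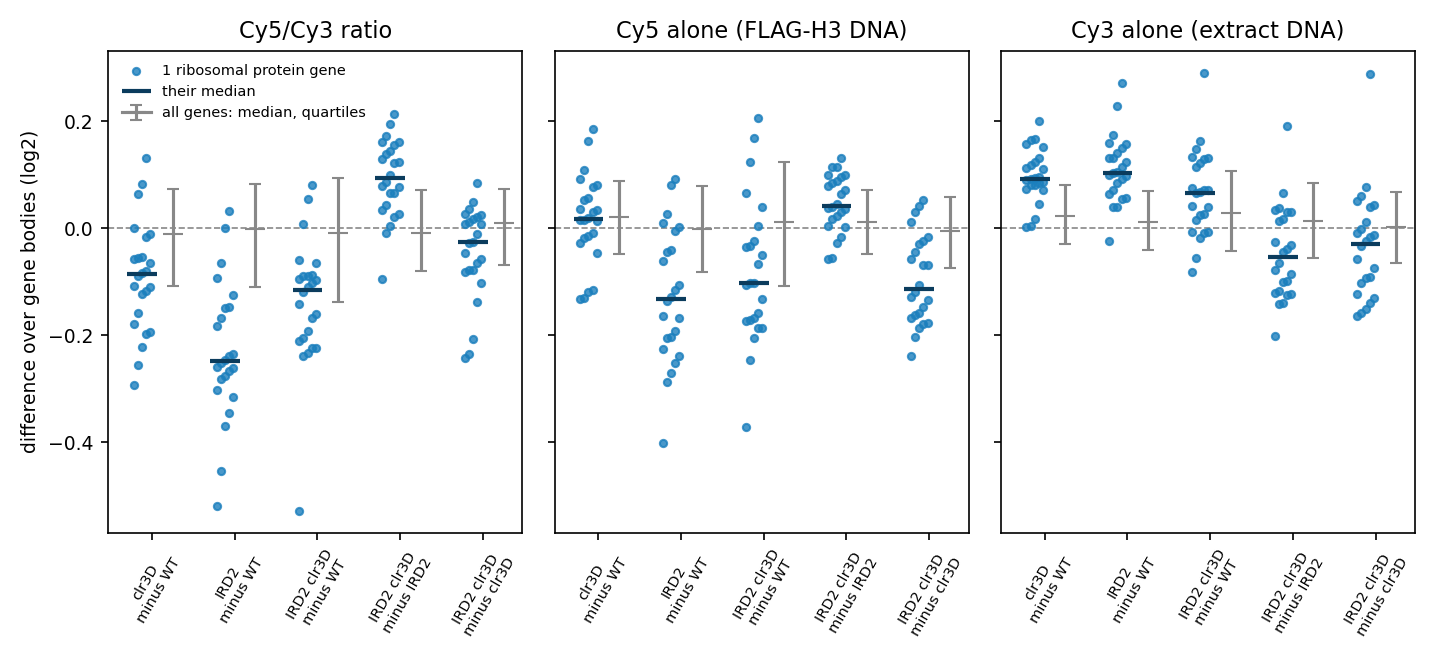
Differences over gene bodies between genotypes (y axis, log2) for the Cy5 over Cy3 ratio, for Cy5 alone and for Cy3 alone, 1 array per genotype. Blue points are the 24 ribosomal protein genes and dark bars their medians, and grey bars give the median and quartiles of all 871 genes. For IRD2 minus WT the median is -0.249 in the ratio, -0.132 in Cy5 and 0.104 in Cy3, and for clr3D minus WT the ratio of -0.086 turns to 0.017 in Cy5 alone.

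In the ratio, the clr3D change thus went in opposite directions in the 2 backgrounds, in pairs of arrays that have none in common. In 19 of 24 genes the clr3D array was below WT and the IRD2 clr3D array above IRD2, a combination found in 21.0% of all genes. The precipitated DNA alone did not show this opposition, since its 2 medians were both above 0, at 0.017 and 0.043, while those of the extract were 0.093 and -0.054. The difference of the 2 differences was above 0 in 22 of 24 genes (53.4% of all genes), with a median of 0.236 and a range from -0.18 for rpl35A02 to 0.37 for rps1002. With 4 arrays and 4 genotypes it has no error and was not tested. It was not recomputed with the adjustment for GC, under which the median of IRD2 clr3D minus IRD2 fell to 0.035.

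The levels over the 24 genes kept much of their order between arrays. Over the 24 genes, Pearson's r between the levels was 0.754 for WT and IRD2, 0.863 for WT and clr3D and 0.920 for IRD2 and IRD2 clr3D, from the same probes with the same base composition in each array. rpl4302, rpl2101 and rpl35A02 were above 0.2 in all 4 arrays, as were rpl2502 and rps2302, and rps2501 was below -0.2 in all 4.

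Other genes of protein synthesis on the same tiles did not share one pattern. The 5 translation factor genes had a median of 0.12 in WT and -0.15 for IRD2 minus WT. The lowest of them, tif512, which encodes a form of the factor eIF5A, stood at 0.23 in WT and -0.19 in IRD2. The 11 genes annotated by symbol or product as mitochondrial ribosomal proteins had a median of -0.058 in WT and 0.038 for IRD2 minus WT. Such proteins build the separate ribosome of mitochondria. Among the 11, kgd4 was listed by its product text and not by its symbol. It had the lowest IRD2 minus WT difference of the list, at -0.29. The 14 ribosome biogenesis genes had medians of -0.040 and 0.072. The 7 genes of RNA polymerases I and III and their initiation factors, enzymes and factors that transcribe the RNAs of the ribosome, had medians of -0.042 and -0.17. Among them hmo1, which encodes an HMG-box factor of RNA polymerase I, stood at 0.42 in WT and 0.10 in IRD2. The 4 glycolytic genes had a WT median of 0.19 and a median difference of -1.09 for IRD2 minus WT. They were widely spread, from -1.82 for eno101 to -0.16 for pfk1. The core histone genes hht2 and hhf2 stood at 1.64 and 0.80 in WT and differed by -0.62 and -0.55. Probes of hht2, the H3.2 gene, can also bind DNA of the plasmid. The stalk gene rpp202, left out by the rule that chose the genes, stood at 0.33 in WT, 0.33 in clr3D, 0.30 in IRD2 clr3D and -0.043 in IRD2, so that only IRD2 was low.

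**Figure D5:**
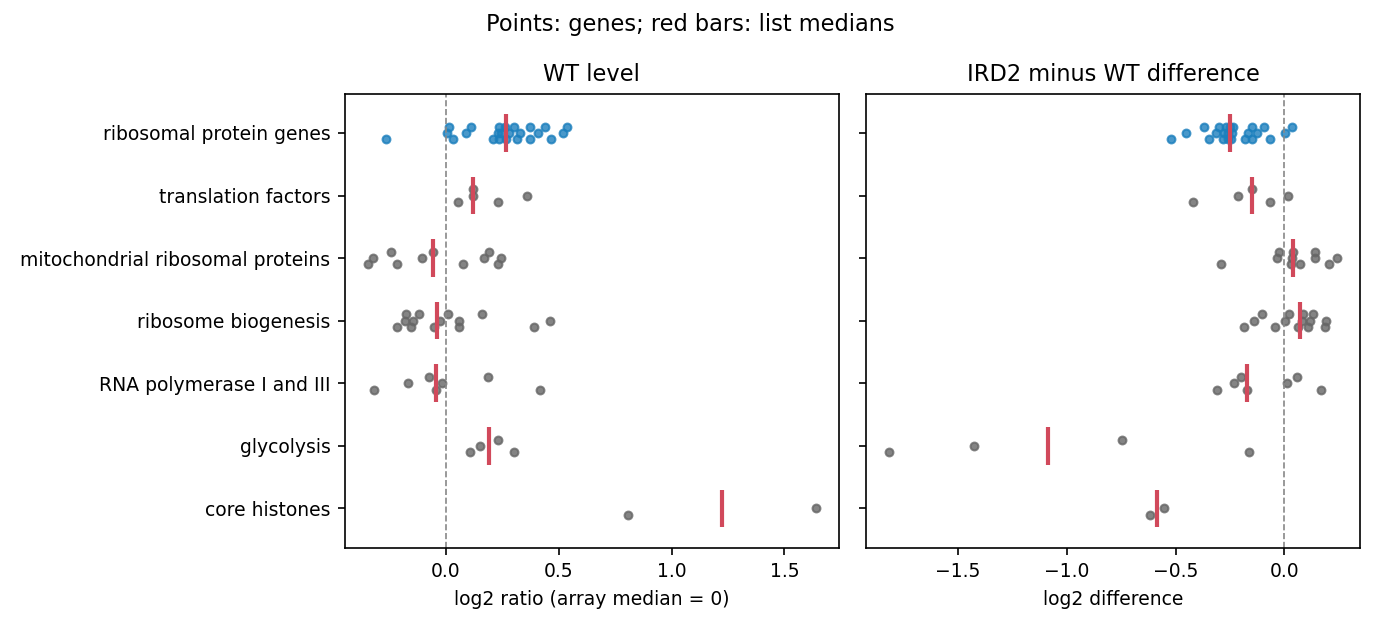
Level of new H3 in WT (left, log2 of Cy5 over Cy3 minus the array median) and the IRD2 minus WT difference (right, log2) for genes of 7 groups on the same tiles, 1 point per gene and a red bar at each group's median. The ribosomal protein genes have medians of 0.265 and -0.249, the ribosome biogenesis genes -0.040 and 0.072, and the glycolytic genes 0.19 and -1.09. The glycolytic differences range from -1.82 to -0.16.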

How the data were processed

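DNA of 4 samples was hybridised in 2 colours, 1 array per sample, per the labels, to tiles of 60 bases. The deposited scanner files hold intensity values of each spot; the file headers name version 12.0.3.1 of the Agilent software. The processed signals are background-subtracted and dye-normalised, per the file headers. The deposited value table holds the linear Cy5 over Cy3 ratio, which equals the ratio of processed signals within 1.1e-08 on the log2 scale and has medians of 0.985, 0.971, 1.01 and 1.00. The value used was log2 of the deposited processed Cy5 over Cy3, minus the array median, without control spots and the 9 to 21 outlier spots per array. A gene's value is the mean over probes inside it, with at least 3 probes.

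The headers name no genome build. The files' coordinates were taken as those of ASM294v3 plus 900 bp, or 1800 bp past the gap. In 11 of 11 windows this shift gave the highest correlation of the extract signal with GC content (0.349 to 0.500, next best 0.213 to 0.332). Genes and promoters come from the RefSeq annotation of that build. Copies were found with blastn 2.17.0. Calculations used Python 3.11.15, numpy 2.4.6, pandas 2.3.3 and scipy 1.17.1, and limma 3.58.1 in R 4.3.3 for normexp (offset 50) and loess. The files used hold no mean spot signal, so normexp started from the medians. The gene summary and motif search were checked on simulated data.

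The genes in the report with values in every array are those 3 highest and 3 lowest in the WT level, in the WT step at the start and in 3 of the differences, with a few others added after their values were seen. The genes, lists and settings were chosen with earlier results of these data known. No test was made, and the number of arrays limits the precision.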

Additional observations from a re-analysis of the deposited data

Results flagged for a closer look

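For the median ribosomal protein gene, the clr3D change went with a lower level of new H3 in cells without IRD2 (-0.086) and with a higher one in IRD2 cells (0.093). It drew attention because the genes moved in opposite directions under the same change in the 2 backgrounds. The median difference between the 2 changes was 0.236 on the log2 scale, against 0.011 over all genes. That value was not recomputed with the adjustment for GC. The difference was not tested, since each genotype has 1 array. With Cy5 alone the 2 changes had the same sign, at 0.017 and 0.043, and with Cy3 alone they were 0.093 and -0.054.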

How the results depend on the processing

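Of 447 values recomputed under 15 alternative settings, 382 moved by less than 0.0932, the spread between neighbouring tiles, and 12 of these changed sign. Of the others, 45 moved by more and 20 changed sign. That spread is as large as some differences reported here, such as -0.086 for clr3D minus WT and 0.093 for IRD2 clr3D minus IRD2. A value that moved by less can therefore still have lost such a difference, and the tally does not show that these differences are stable. The level in IRD2, -0.00040 in the ratio, had the other sign under 5 settings, and the step difference of IRD2 clr3D minus IRD2 was -0.0168 after the adjustment for GC. The cause was not tested unless named. Scaling to 1 median absolute deviation, keeping probes well above background, the median over probes, the deposited value table, 10 or more probes per gene, flanks of 250 bp, flanks outside coding genes and leaving out rpl701 moved none by more than that. The last 2 and the GC adjustment were chosen after seeing the data. The deposited value table is the same ratio within 1.1e-08 on the log2 scale, so that it could move no value. All probes inside the ribosomal protein genes were well above background, so that this setting could move no gene-body value. Leaving out rpl701 could not change a value of the rps genes. These values count among the 382 and say little about stability. With normexp the WT level was 0.377 (rps 0.383, rpl 0.371), and the step at the start differed by -0.307 for IRD2 minus WT and -0.227 for IRD2 clr3D minus WT. With loess the step was 0.119 in WT, 0.0731 in clr3D and -0.0473 in IRD2 clr3D, the body minus downstream difference -0.0389 in IRD2 clr3D, and the level 0.0656 in clr3D (rps 0.0757, rpl 0.0555) and 0.0284 for rpl in IRD2 clr3D.

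Single channels carry the probes' own brightness, and their steps were larger than those of the ratio over all genes too. Over all genes the step with Cy5 alone was 0.790, 0.770, 0.668 and 0.597 (WT, clr3D, IRD2, IRD2 clr3D). With Cy3 alone it was 0.694, 0.6555, 0.626 and 0.490 in that order. The values that follow are those of the ribosomal protein genes. With Cy5 alone the step was 0.909, 0.932, 0.754 and 0.668 (WT, clr3D, IRD2, IRD2 clr3D), and 0.483, 0.507, 0.440 and 0.478 against downstream DNA, where IRD2 had been below 0. In clr3D the 3' part of the gene exceeded the 5' part by 0.164. Levels were 0.209 in IRD2 (rps 0.298, rpl 0.203) and, for rps, 0.501 in WT, 0.483 in clr3D and 0.315 in IRD2 clr3D. Level differences were 0.0171 for clr3D minus WT and -0.132 for IRD2 minus WT, and step differences -0.0974 and -0.203 for IRD2 clr3D minus IRD2 and minus clr3D. With Cy3 alone the step was 0.662, 0.752, 0.689 and 0.608, and 0.361, 0.433, 0.424 and 0.460 downstream, in the same order of arrays. Levels were 0.110 in WT (rpl -0.0833), 0.176 in IRD2 (rps 0.291), 0.333 and 0.0306 for rps and rpl in clr3D, and 0.00973 for rpl in IRD2 clr3D. Level differences were 0.0932, 0.104 and 0.0665 for clr3D, IRD2 and IRD2 clr3D minus WT and -0.0538 for IRD2 clr3D minus IRD2. Step differences were 0.0286 and 0.0333 for clr3D and IRD2 minus WT and -0.133 for IRD2 clr3D minus IRD2.

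Probes matching 1 place gave -0.155 for IRD2 minus WT. Flanks outside every annotated gene, which left 6 genes, gave a step difference of -0.0292 for IRD2 clr3D minus WT. Adjusted for GC, the step was 0.152 in WT and -0.0211 in IRD2 clr3D, the downstream difference 0.0585 and -0.0406, the level 0.0186 in IRD2 clr3D (rps 0.0150, rpl 0.0223) and 0.105 for rps in clr3D, and IRD2 minus WT -0.155. No paired analysis was possible because each genotype has 1 array.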
